A study of Mus musculus with 24 samples.

Results

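The 10 genes described here are targets and feedback regulators of WNT signalling: the intracellular brakes Axin2 and Nkd1, the R-spondin receptors Lgr5 and Lgr4, the receptor ubiquitin ligases Rnf43 and Znrf3, the secreted brake Notum, and the transcription factors Tcf7, Lef1 and Ascl2. They were taken by symbol from an expression table of 19895 entries, and each of the 10 had an entry. The test used the 11438 genes that were counted at least once in each library, and 9 members were among them. Lef1 had 0 counts in 2 libraries and was left out of it. The values were measured in mouse pancreatic ductal organoids, which are epithelial spheres grown in matrix: normal (N) organoids from wild-type C57Bl/6J mice, and KP organoids from pancreatic tumours of genetically engineered mice whose tumour-driving alleles are switched on by Cre, itself driven from the Pdx1 promoter. Both types received either vehicle (DMSO) or 10 nM of CR-31, a rocaglate inhibitor of the translation helicase eIF4A, for 1 h. Polysome-associated mRNA (mRNA carrying at least 3 ribosomes) and total mRNA were sequenced from each lysate, which gave 8 groups of 3 libraries and 24 libraries in all. The culture medium of both types held R-spondin 1- and Noggin-conditioned medium, and the methods list no added WNT ligand. The labels number the replicates without saying whether they were separate animals or cultures, so p-values measure the spread between these samples.

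In the canonical pathway, a WNT ligand binds Frizzled and LRP receptors and stops the destruction complex from degrading beta-catenin, which then drives transcription with TCF/LEF factors. AXIN2 is a scaffold of the destruction complex and its gene is a widely used readout of pathway activity. RNF43 and ZNRF3 remove Frizzled receptors from the cell surface, and R-spondins bound to LGR4 or LGR5 hold these ligases back. LGR5 marks WNT-dependent stem cells in intestine, and in pancreas it appears in ducts after injury and in duct-derived organoids. NOTUM inactivates secreted WNT proteins by removing their lipid, and NKD1 binds Dishevelled.

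Depth ranged from 47.3 to 267.5 M counts per library (M, 1000000). Keratins and other duct markers had a summed level of 6403 to 15759 CPM in every library (counts per 1000000, scaled with TMM factors within each mRNA fraction). Not each of them was abundant: Cftr spanned 1.01–10.2 CPM in N and 0.968–12.6 CPM in KP. The summed levels of acinar, endocrine, fibroblast, lymphocyte and endothelial markers were at most 7.06 CPM in every library. Macrophage markers summed to 16.4–34.4 CPM in N and 3.65–50.3 CPM in KP, where the highest value belonged to the vehicle polysome library of replicate 3, against 3.65–5.93 CPM in the other 11 KP libraries. That library held 1854 counts of Lyz2, a macrophage lysozyme, against at most 10 in each of the other 11 KP libraries and at most 309 in N. Adgre1, of the same list, had at most 6 counts in any KP library and 1 in N. In N, Cd68 and Csf1r had medians of 7.01 and 11.3 CPM, and Lyz2 had 0.0311 CPM. The lymphocyte sum was also highest in that KP library, at 3.44 CPM against at most 0.199 CPM in the other 11. In N replicate 3, genes that went up with CR-31 in the polysome fraction tended to go down in total mRNA (Pearson's r = -0.81 across 11438 genes, which are not independent), against r = 0.60 and 0.31 in N replicates 1 and 2. The same value was -0.37 in KP replicate 1, 0.69 in replicate 2 and 0.37 in replicate 3. Results on CR-31 and on translational efficiency are therefore given with and without N replicate 3. Whether labels were exchanged between the libraries of N replicate 3, or of KP replicate 1, was not tested, and their values by fraction and treatment are given as labelled. The sample descriptions hold a number for each library, taken here for a sequencing batch although the labels do not name it so. N and KP libraries carried different batch numbers, so organoid type and batch number cannot be told apart.

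The members fell into 6 that were well measured and 4 that were close to the floor. Levels were compared between genes on the deposited RPKM, which divides by transcript length. In total mRNA of N organoids with vehicle, Axin2 had 10.7 ± 1.52 RPKM (SD, n = 3), Rnf43 had 9.42 ± 1.28, Tcf7 had 6.55 ± 1.74, Lgr4 had 6.46 ± 0.622, Znrf3 had 4.06 ± 0.780 and Lgr5 had 3.34 ± 1.72. Neighbours in that order overlapped in their ranges, apart from Rnf43 with Tcf7 and Lgr4 with Znrf3. Ascl2 followed at 0.383 ± 0.279, Notum at 0.184 ± 0.0934, Nkd1 at 0.0467 ± 0.0162 and Lef1 at 0.0295 ± 0.00385 RPKM. In KP organoids with vehicle the order began with Lgr4 at 11.03 ± 1.35 RPKM and Rnf43 at 8.06 ± 3.37, and Axin2 came next at 4.63 ± 5.38, an SD larger than its mean. The ranges of these 3 genes in KP overlapped.

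The comparison of KP with N asks how the WNT response differs between tumour and normal organoids. By edgeR, Lgr4 was higher in KP and Nkd1 was lower in KP in each of the 4 kinds of library. Axin2, Lgr5 and Znrf3 were lower in polysome-associated mRNA with vehicle, and Lgr5, Notum and Ascl2 in total mRNA with CR-31. In this model, which has no replicate block, Rnf43 and Tcf7 passed edgeR's test in none of the 4 comparisons with every replicate. DESeq2 called Tcf7 as lower in polysome-associated mRNA with CR-31 (-0.91 ± 0.49, DESeq2 adjusted p = 0.239). With edgeR's quasi-likelihood test and an adjusted p below 0.25 (the study's own threshold), 2 of 9 members were called in total mRNA with vehicle, where 28.5% of all genes were, and 5 of 9 in polysome-associated mRNA with vehicle, where 43.1% were. With CR-31, 5 of 9 were called in total mRNA against 39.9% of all genes, and 2 of 9 in polysome-associated mRNA against 25%. These shares of the members were not far from those of all genes, and they moved when a replicate was left out. In the same order of comparisons, the members called numbered 2, 0, 1 and 1 without KP replicate 1, where 18.1%, 24.6%, 15.7% and 8.03% of all genes were called. Without KP replicate 3 they numbered 2, 2, 0 and 1, against 21.9%, 34.5%, 35.4% and 14.9% of all genes. In both comparisons with a count of 0, edgeR gave 0 members an unadjusted p below 0.05. Without the KP vehicle lysate of replicate 3, whose polysome library held the macrophage genes, 3 members were called in total mRNA with vehicle (Lgr4, Nkd1 and Notum, against 23.4% of all genes) and 3 in polysome-associated mRNA (Lgr4, Lgr5 and Znrf3, against 38%). The part of macrophage RNA in the results was not tested. No member had KP and N libraries that were fully apart in all 4 kinds of library, which 13.7% of the genes tested had.

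Axin2 gave the plainest reading per library. In total mRNA with vehicle, N replicates 1, 2 and 3 had 41.9, 50.4 and 63.1 CPM, and KP replicates 1, 2 and 3 had 7.54, 52.1 and 6.60 CPM. In polysome-associated mRNA with vehicle, the N replicates had 45.2, 55.9 and 46.8 CPM and the KP replicates 5.78, 40.5 and 5.20 CPM. KP replicates 1 and 3 thus lay far below N, whereas KP replicate 2 lay inside or just under the N range. With CR-31, the KP replicates had 6.88, 60.9 and 5.86 CPM in total and 6.003, 53.1 and 6.64 CPM in polysome-associated mRNA, with 43.7–67.4 and 47.99–66.2 CPM in N. Across all 12 libraries of each type, N spanned 41.9–67.4 CPM, KP replicate 2 spanned 40.5–60.9 CPM, and KP replicates 1 and 3 spanned 5.20–7.54 CPM.

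The fold change of Axin2 accordingly rested on 1 replicate number. With every replicate, its log2 fold change (KP over N, vehicle) was -1.23 ± 0.90 (SE) in total mRNA (edgeR adjusted p = 0.439) and -1.52 ± 0.87 in polysome-associated mRNA (adjusted p = 0.245), where KP and N did not overlap but the call held in 5 of the 18 fits that left out a lysate or a replicate. With CR-31 it was -1.08 ± 0.90 in total mRNA (edgeR adjusted p = 0.435) and -1.40 ± 0.87 in polysome-associated mRNA (adjusted p = 0.373). Without KP replicate 2, it was -2.87 ± 0.30 in total (edgeR adjusted p = 0.00321) and -3.17 ± 0.26 in polysome-associated mRNA (adjusted p = 0.00308) with vehicle. The same values with CR-31 were -3.03 ± 0.31 (edgeR adjusted p = 0.00225) and -3.20 ± 0.26 (adjusted p = 0.00289).

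**Figure D1:**
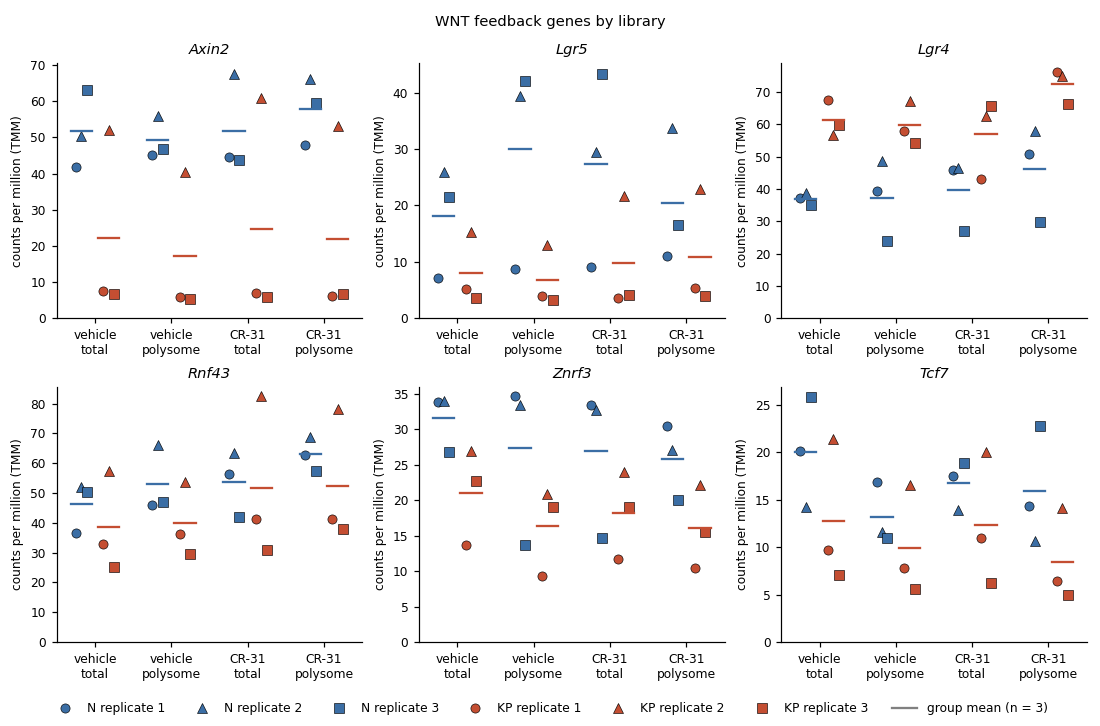
CPM (TMM-scaled, linear axis from 0) of the 6 well-measured members in each of the 24 libraries, by treatment and mRNA fraction, with N in blue, KP in red, a symbol for each replicate number and a line at the group mean (n = 3). KP replicate 2 (red triangles) sits at 40.5–60.9 CPM for Axin2, beside N, while KP replicates 1 and 3 sit at 5.20–7.54 CPM.

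KP replicate 2 was examined further, a choice made after these values were seen, and what follows is a description without a test. In each of the 4 kinds of library, Axin2 in KP replicate 2 was at least 6.91 times the higher of KP replicates 1 and 3. A ratio that large was found for 3 of the 11438 genes (0.0262%), namely Axin2, Avil and Mmp7. Mmp7 encodes matrilysin, a protease known as a beta-catenin target in intestinal tumours, and Avil encodes advillin, an actin-binding protein of tuft cells. In total mRNA with vehicle, Mmp7 had 10.7, 238 and 29.7 CPM in KP replicates 1, 2 and 3 and 244, 1893 and 1470 CPM in N. Avil had 0.110, 2.15 and 0.0635 CPM in KP and 0.175–0.229 CPM in N, so that KP replicate 2 stood above N for this gene and near the lowest N replicate for Mmp7.

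Among the 9 members tested, 6 were higher in KP replicate 2 than in both other KP replicates in all 4 kinds of library (Axin2, Lgr5, Tcf7, Rnf43, Ascl2 and Znrf3), a pattern shown by 11.7% of all genes tested. The smallest ratio to the higher of the other replicates was 3.00 for Lgr5, 1.83 for Tcf7, 1.49 for Rnf43, 1.18 for Ascl2 and 1.10 for Znrf3. Of 58 other WNT pathway genes tested, 15 showed the pattern, among them Sp5, a TCF/LEF target gene, with 20.7, 85.7 and 39.6 CPM in KP replicates 1, 2 and 3 (total mRNA, vehicle) and 71.0–101 CPM in N. No member was highest in all 4 kinds of library in KP replicate 1 or KP replicate 3, where 6.85% and 10.8% of all genes were. Among the N replicates, replicate 2 was the highest in all 4 kinds for 4 members (Ascl2, Lgr4, Nkd1 and Rnf43, against 10.4% of all genes), replicate 3 for Notum (10.4%) and replicate 1 for 0 members (20.9%). The vehicle libraries of KP replicate 2 carried the batch number 4318.001 and its CR-31 libraries 4292.002. Axin2 spanned 40.5–60.9 CPM over these libraries, and a part of the batch in it was not tested. Its summed duct markers, 9122–11473 CPM, overlapped those of KP replicate 3, 9171–10004 CPM, and of KP replicate 1, 6403–9270 CPM.

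**Figure D2:**
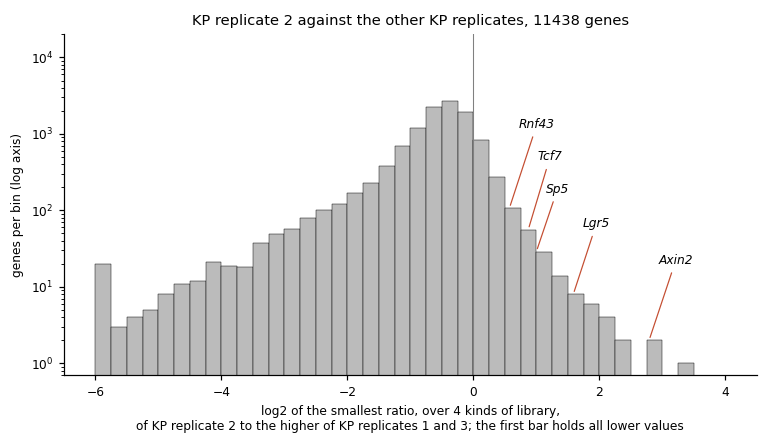
Number of genes (log axis) by the log2 of the smallest ratio, over the 4 kinds of library, of KP replicate 2 to the higher of KP replicates 1 and 3, for 11438 genes in bins of 0.25. Most genes lie at or below 0, whereas Axin2 (ratio 6.91) lies in the far right tail, followed by Lgr5 (3.00), Sp5 (2.00), Tcf7 (1.83) and Rnf43 (1.49).

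Leaving out KP replicate 2, which was an alternative planned for every replicate, changed the count of members called in KP against N. It was 6 of 9 in total mRNA with vehicle (19.5% of all genes) and 6 of 9 in polysome-associated mRNA with vehicle (29.8%). With CR-31 it was 7 of 9 in total (35.7%) and 5 of 9 in polysome-associated mRNA (19.2%). In all 4 of these fits Axin2, Lgr5, Nkd1, Rnf43 and Tcf7 were lower in KP. Lgr4, on the other hand, was called as higher only in total mRNA with vehicle, where its log2 fold change was 0.78 ± 0.28 (edgeR adjusted p = 0.142). Each of these fits leaves 2 KP libraries against 3 N libraries and borrows the spread of the other groups.

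**Figure D3:**
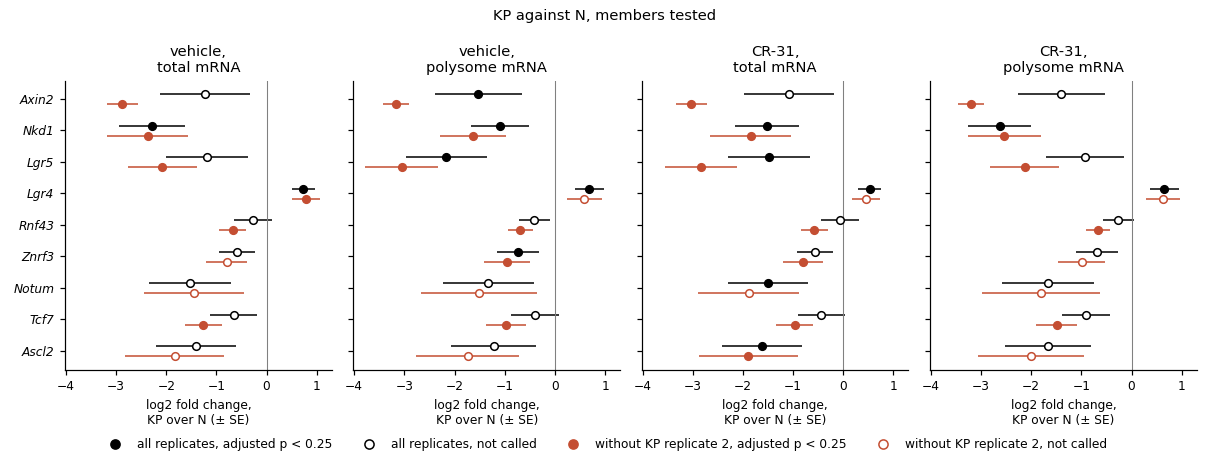
Log2 fold change of KP over N (± SE, linear axis) for the 9 members tested in each kind of library, with all replicates in black and without KP replicate 2 in red, filled where the adjusted p was below 0.25. Axin2 moves from -1.23 to -2.87 in total mRNA with vehicle, while Lgr4 lies above 0 in every panel.

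The upstream 250 bases of Axin2 are shown because it was the member whose level differed most between KP replicates (RefSeq promoter table, GRCm38.p6, chr11:108920099-108920348, plus strand). Those of Lgr4, the member that was higher in KP, follow (chr2:109917397-109917646, plus strand). The last is 1 of 4 windows listed for Lef1 (chr3:131156044-131156293, plus strand), shown because it was the only member window holding the TCF/LEF core CTTTGA. Capitals mark CTTTGA or CTTTGT on either strand.

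Axin2: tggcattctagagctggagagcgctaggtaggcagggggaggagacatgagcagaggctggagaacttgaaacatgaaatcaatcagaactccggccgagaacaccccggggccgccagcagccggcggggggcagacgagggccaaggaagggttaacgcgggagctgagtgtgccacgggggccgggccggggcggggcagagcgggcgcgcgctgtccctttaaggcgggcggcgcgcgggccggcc

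Lgr4: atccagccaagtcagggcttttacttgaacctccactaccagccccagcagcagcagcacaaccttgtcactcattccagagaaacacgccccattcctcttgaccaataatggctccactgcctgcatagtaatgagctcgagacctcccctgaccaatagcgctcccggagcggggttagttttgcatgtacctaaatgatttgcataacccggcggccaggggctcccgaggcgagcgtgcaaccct

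Lef1: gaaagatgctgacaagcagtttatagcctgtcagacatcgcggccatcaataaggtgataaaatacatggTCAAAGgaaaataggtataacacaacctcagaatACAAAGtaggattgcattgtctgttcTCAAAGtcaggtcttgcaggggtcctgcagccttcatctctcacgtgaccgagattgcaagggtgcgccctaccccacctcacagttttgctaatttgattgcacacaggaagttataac

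Promoter windows were found for 7 of the 10 members (12 windows; Lgr5, Znrf3 and Notum had none in the table). CTTTGA, searched on both strands, was in 13.8% of all 32851 windows of this length, and CTTTGT in 16.5%. The Lef1 window above held CTTTGA 2 times and CTTTGT 1 time, and the other 11 member windows held neither. This describes the letters in these windows only.

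Lgr5, the R-spondin receptor of stem cells, varied within both organoid types. In total mRNA with vehicle, N replicates 1, 2 and 3 had 7.13, 25.9 and 21.6 CPM and the KP replicates 5.11, 15.3 and 3.53 CPM. In polysome-associated mRNA with vehicle, the N replicates had 8.66, 39.5 and 42.2 CPM and the KP replicates 3.94, 12.9 and 3.29 CPM. N replicate 1 was the lowest N replicate in all 4 kinds of library and lay below KP replicate 2, so the groups overlapped. In the polysome fraction with vehicle the log2 fold change was -2.17 ± 0.81 (edgeR adjusted p = 0.0874), and in total mRNA -1.19 ± 0.82 (adjusted p = 0.407). With CR-31 it was -1.48 ± 0.82 in total mRNA (edgeR adjusted p = 0.245) and -0.92 ± 0.78 in polysome-associated mRNA (adjusted p = 0.533). The call in polysome-associated mRNA with vehicle held in 17 of the 18 fits that left out a lysate or a replicate, and that in total mRNA with CR-31 in 6.

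Lgr4, the more widely expressed of the R-spondin receptors, was the only member called as higher in KP. In total mRNA with vehicle, N replicates had 37.2, 38.6 and 35.1 CPM and KP replicates 67.5, 56.7 and 59.8 CPM. In polysome-associated mRNA with vehicle, N replicates had 39.2, 48.8 and 23.7 CPM and KP replicates 57.9, 67.3 and 54.1 CPM. The groups did not overlap in these comparisons. The log2 fold change was 0.73 ± 0.23 in total (1.66-fold, edgeR adjusted p = 0.0726) and 0.68 ± 0.29 in polysome-associated mRNA (1.60-fold, adjusted p = 0.122). With CR-31 it was 0.52 ± 0.23 in total mRNA (edgeR adjusted p = 0.154), where KP replicate 1 at 43.01 CPM lay inside the N range, and 0.65 ± 0.29 in polysome-associated mRNA (adjusted p = 0.198). It was above 0 in each of the 18 fits of that kind, with a range of 0.66–0.78 in total and 0.43–0.92 in polysome-associated mRNA with vehicle. It passed the test in 18 and 15 of these fits, respectively, and with CR-31 in 12 in total and 11 in polysome-associated mRNA.

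The receptor ubiquitin ligases overlapped between types. Rnf43 in total mRNA with vehicle had 36.4, 52.1 and 50.5 CPM in N and 32.7, 57.4 and 25.2 CPM in KP, with a log2 fold change of -0.27 ± 0.38 (edgeR adjusted p = 0.711). KP replicate 2 was the highest of the 6 libraries. Znrf3 had 33.8, 33.996 and 26.8 CPM in N and 13.7, 26.9 and 22.7 CPM in KP, with a log2 fold change of -0.58 ± 0.36 (edgeR adjusted p = 0.353). In polysome-associated mRNA with vehicle, Znrf3 had 34.7, 33.5 and 13.7 CPM in N and 9.28, 20.9 and 19.01 CPM in KP, a log2 fold change of -0.74 ± 0.41 that passed the test (edgeR adjusted p = 0.237). N replicate 3 was the low N library there, and without it the log2 fold change was -1.06 ± 0.37 (edgeR adjusted p = 0.0656). The call held in 10 of the 18 fits that left out a lysate or a replicate, with log2 fold changes from -1.06 to -0.45 and an edgeR adjusted p of up to 0.538.

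Tcf7, which encodes the TCF1 factor, had 20.1, 14.3 and 25.8 CPM in N and 9.72, 21.4 and 7.03 CPM in KP in total mRNA with vehicle. KP replicate 2 again lay inside the N range and the other KP replicates below it. The log2 fold change was -0.66 ± 0.46 in total (edgeR adjusted p = 0.419) and -0.40 ± 0.48 in polysome-associated mRNA (adjusted p = 0.597), and -1.26 ± 0.37 in total mRNA without KP replicate 2 (adjusted p = 0.0832).

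The other 4 members had few reads. Nkd1 had 3 to 82 counts, Notum 6 to 181, Ascl2 10 to 268 and Lef1 0 to 28 in the 24 libraries. A member was taken as too low to assess where its median count was below 10 in both groups. This held for Lef1 in KP against N in polysome-associated mRNA with vehicle (medians of 8 and 2 counts in N and KP) and in total mRNA with CR-31 (9 and 8 counts), and in CR-31 against vehicle in polysome-associated mRNA of KP (4 and 2 counts). It held for Nkd1 in CR-31 against vehicle in total mRNA of KP (5 and 4 counts), and for both in polysome-associated against total mRNA of KP with CR-31 (3 and 5 counts for Nkd1, 4 and 8 for Lef1). No direction is given in these cases.

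Nkd1 was low but lower still in KP. In total mRNA with vehicle it had 24, 37 and 18 counts in N and 6, 4 and 3 counts in KP, or 0.175, 0.324 and 0.188 CPM against 0.0601, 0.0523 and 0.0272 CPM. These groups did not overlap. The log2 fold change was -2.28 ± 0.66 (edgeR adjusted p = 0.0508). It was -1.10 ± 0.57 in polysome-associated mRNA with vehicle (edgeR adjusted p = 0.206), where KP had 12, 16 and 8 counts, -1.52 ± 0.64 in total mRNA with CR-31 (adjusted p = 0.140) and -2.63 ± 0.64 in polysome-associated mRNA with CR-31 (adjusted p = 0.0340). The first and the last of these passed in each of the 18 fits that left out a lysate or a replicate, and the others in 12 of 18. The calls in polysome-associated mRNA with vehicle and in total mRNA with CR-31 were lost under DESeq2 (adjusted p = 0.373 and 0.273) and with no filter (edgeR adjusted p = 0.411 and 0.277).

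Notum and Ascl2 differed widely among N replicates. Notum in total mRNA with vehicle had 24, 54 and 62 counts in N and 6, 10 and 28 in KP, with overlapping groups and a log2 fold change of -1.52 ± 0.82 (edgeR adjusted p = 0.281). With CR-31 it was -1.50 ± 0.80 and passed (edgeR adjusted p = 0.225), a call that held in 8 of the 18 fits that left out a lysate or a replicate (log2 fold changes from -1.998 to -0.79, adjusted p up to 0.602). Ascl2, a factor of intestinal stem cells, had 40, 148 and 52 counts in N and 16, 31 and 26 in KP, with a log2 fold change of -1.41 ± 0.80 (edgeR adjusted p = 0.308). With CR-31 in total mRNA it was -1.62 ± 0.80 (edgeR adjusted p = 0.200), and this call held in 10 of the 18 fits (adjusted p up to 0.514). N replicate 2 was the highest N replicate for Ascl2 in all 4 kinds of library. In polysome-associated mRNA with vehicle, Ascl2 had a log2 fold change of -1.22 ± 0.84 (edgeR adjusted p = 0.340), and of 0.22 ± 0.78 without the N vehicle lysate of replicate 2 (adjusted p = 0.892).

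Lef1, another TCF/LEF factor, had 8, 16 and 12 counts in N and 3, 13 and 10 in KP in total mRNA with vehicle, and its 2 zeros were in KP polysome libraries. With edgeR's filterByExpr in place of the filter on zeros, its log2 fold change there was -0.15 ± 0.82 (edgeR adjusted p = 0.937).

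**Figure D4:**
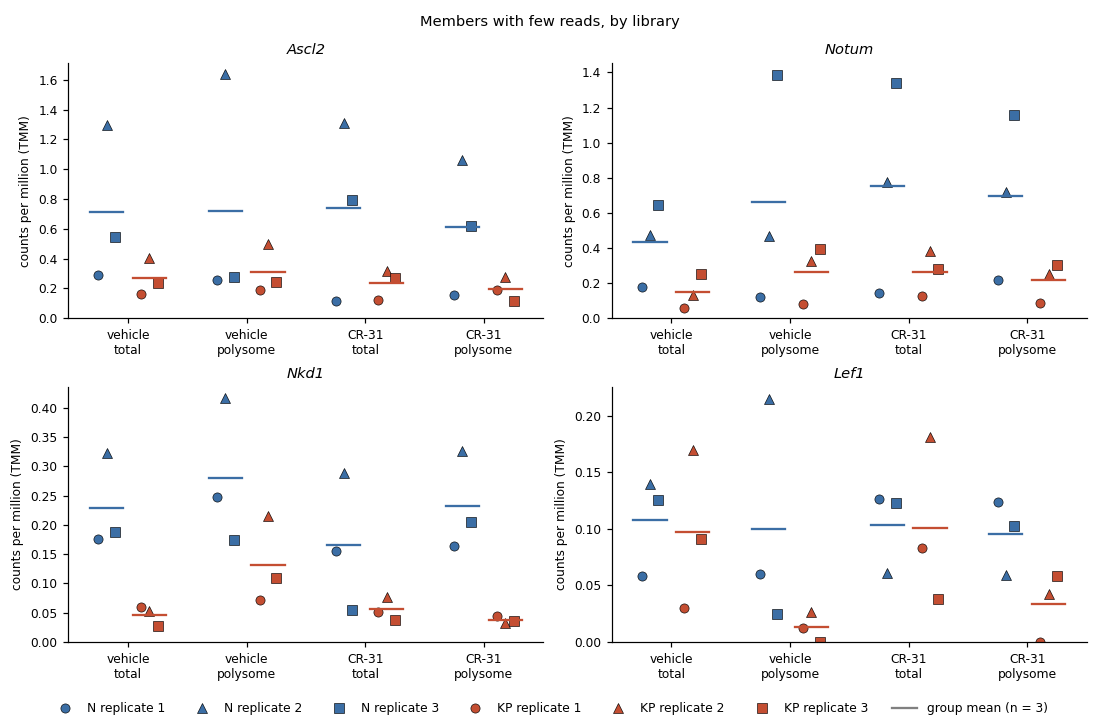
CPM (TMM-scaled, linear axis from 0) of the 4 members with few reads in the 24 libraries, with symbols and colours for replicate and organoid type and a line at the group mean (n = 3). No value exceeds 1.64 CPM, Nkd1 is lower in KP than in N in total mRNA with vehicle without overlap, and Lef1 reaches at most 0.215 CPM.

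Among the other genes of the pathway, WNT ligands were lower in KP. Of 16 ligands listed, 7 could be tested, and 6 were lower and 0 higher in total mRNA with vehicle, where 28.5% of all genes were called, with a median log2 fold change of -3.20 against -0.03 over all genes tested. In polysome-associated mRNA 5 were lower and 0 higher, against 43.1% of all genes. The log2 fold change in total mRNA was -6.91 ± 0.79 for Wnt10a (edgeR adjusted p = 0.00113), -5.88 ± 1.21 for Wnt11 (adjusted p = 0.0146) and -4.52 ± 0.95 for Wnt7a (adjusted p = 0.0155). Wnt7b, the most abundant ligand by RPKM, was the ligand tested that did not pass, with a log2 fold change of -0.21 ± 0.29 (edgeR adjusted p = 0.714) and medians of 116 RPKM in N and 114 RPKM in KP over 12 libraries each. Wls, the carrier that WNT proteins need for secretion, was lower in KP (-0.54 ± 0.25, edgeR adjusted p = 0.208), but with CR-31 in polysome-associated mRNA it was not called (-0.26 ± 0.31, adjusted p = 0.665). Rspo1, Rspo2 and Rspo4 had at most 2 counts in any library and Rspo3 at most 59, so that R-spondin mRNA was nearly undetected.

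Of 16 receptors and co-receptors, 13 were tested in total mRNA with vehicle, and 1 was higher and 3 were lower in KP, a share of 4 in 13 near the 28.5% of all genes. The lower ones were the Frizzled receptors Fzd1 (-1.92 ± 0.37, edgeR adjusted p = 0.0105), Fzd8 (-1.46 ± 0.45, adjusted p = 0.0647) and Fzd4 (-1.16 ± 0.43, adjusted p = 0.115). In polysome-associated mRNA 5 of the 13 were called, 1 higher and 4 lower, against 43.1% of all genes. Of 14 pathway inhibitors, nearly all secreted or in the membrane, 4 were tested. The membrane inhibitor Apcdd1 was higher (3.47 ± 0.65, edgeR adjusted p = 0.00968) from 0.0417–0.212 CPM in N to 0.861–2.17 CPM in KP, and Ctnnbip1, whose intracellular product keeps beta-catenin from TCF factors, was lower (-0.60 ± 0.23, adjusted p = 0.135). In polysome-associated mRNA 1 of the 4 was called as higher, and Ctnnbip1 had a log2 fold change of -0.04 ± 0.27 (edgeR adjusted p = 0.933). With CR-31 that of Ctnnbip1 was -0.39 ± 0.23 in total mRNA (edgeR adjusted p = 0.281) and -0.79 ± 0.27 in polysome-associated mRNA (adjusted p = 0.105). In the destruction complex and signal transduction list, 1 of 12 tested was called, Btrc, a ubiquitin ligase subunit for beta-catenin (-0.48 ± 0.24, edgeR adjusted p = 0.243). In polysome-associated mRNA 6 of these 12 were called, 1 higher and 5 lower, against the 43.1% of all genes called there. With CR-31, 2 of the 12 were called in total mRNA, both lower, against 39.9% of all genes. In polysome-associated mRNA 0 were called, against 25% of all genes, and Btrc had a log2 fold change of -0.36 ± 0.28 (edgeR adjusted p = 0.502). Of 10 nuclear TCF partners tested, the repressor Tcf7l1 was lower (-1.77 ± 0.66, edgeR adjusted p = 0.120) and the corepressor Tle1 higher (0.64 ± 0.17, adjusted p = 0.0396). In polysome-associated mRNA 5 of these 10 were called, 4 higher and 1 lower, with Tle1 at 0.72 ± 0.17 (edgeR adjusted p = 0.0169) and Tcf7l1 at -1.60 ± 0.65 (adjusted p = 0.112).

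Other reported WNT targets went both ways. Of 10 tested in total mRNA with vehicle, 3 were higher and 5 lower in KP, against 28.5% of all genes, and in polysome-associated mRNA 2 were higher and 4 lower, against 43.1%. In total mRNA with vehicle Prox1 was lower (-2.70 ± 0.68, edgeR adjusted p = 0.0316), as was Cd44 (-1.60 ± 0.25, adjusted p = 0.00480), and Tnfrsf19 was higher (1.71 ± 0.61, adjusted p = 0.108). With CR-31, 7 of the 10 were called in total mRNA, 3 higher and 4 lower (39.9% of all genes), and 3 in polysome-associated mRNA, 1 higher and 2 lower (25%). Prox1 then had a log2 fold change of -1.14 ± 0.64 in total (edgeR adjusted p = 0.248) and -1.49 ± 0.88 in polysome-associated mRNA, where it was not called (adjusted p = 0.348). Cd44 and Prox1 are known to answer to other pathways as well.

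Treatment with CR-31 asks whether inhibition of eIF4A for 1 h changed these mRNAs. Counts were TMM-scaled, so higher or lower with CR-31 means relative to most other mRNAs in the libraries compared. A loss shared by most polysome-associated mRNAs would not show in these values. The paper reports a fall in new protein synthesis in KP organoids at this dose and time. With the design used for every comparison, 0 of 9 members and 0 of all genes were called by edgeR in either mRNA fraction of N or KP or in translational efficiency (the change in polysome-associated relative to total mRNA). Over all genes, 48 to 627 had an unadjusted p below 0.05 in these comparisons, and DESeq2 called 0 to 13. At an unadjusted p below 0.05, 1 member was found in polysome-associated mRNA of KP (Nkd1), 1 in translational efficiency of KP (Nkd1) and 1 in translational efficiency of N (Lgr5), by edgeR. DESeq2 called 0 members in these comparisons, and edgeR called 0 in each fit that left out a lysate or a replicate, N replicate 3 included. For the difference of the CR-31 effect between KP and N, both tools called 0 members in either fraction, and by edgeR 0 had an unadjusted p below 0.05. DESeq2 gave Axin2 no adjusted p in the CR-31 comparisons of polysome-associated mRNA, so its counts there leave Axin2 out.

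Vehicle and CR-31 libraries of the same number deviated together, so the comparison with the replicate number as a block applies. In polysome-associated mRNA of KP it called 3 of 9 members, against 19.3% of all genes: Rnf43 was higher with CR-31 (0.36 ± 0.14, edgeR adjusted p = 0.213), Lgr4 was higher (0.28 ± 0.12, adjusted p = 0.2496) and Nkd1 was lower (-1.71 ± 0.57, adjusted p = 0.194). By replicate, Rnf43 went from 36.1 to 41.1, from 53.7 to 78.1 and from 29.5 to 38.1 CPM, and Lgr4 from 57.9 to 76.3, from 67.3 to 75.0 and from 54.1 to 66.3 CPM. Nkd1 went from 12 to 4, from 16 to 3 and from 8 to 3 counts. All 3 replicates moved in the direction of the call for each gene. In replicate 2 of KP, as of N, the vehicle and CR-31 libraries carried different batch numbers. With the batch number as a term in place of the replicate block, edgeR called none of these genes. Rnf43 then had 0.42 ± 0.37, Lgr4 0.34 ± 0.28 and Nkd1 -1.65 ± 0.74 (edgeR adjusted p = 0.970 for each). The 3 calls were lost when KP replicate 1 was also left out, an alternative added after the data were seen: 0 of 9 members and 0.00874% of all genes (1 gene) were called by edgeR, and Nkd1 and Rnf43 were the members at an unadjusted p below 0.05. The log2 fold change was then 0.45 ± 0.20 for Rnf43 (edgeR adjusted p = 0.646), 0.23 ± 0.19 for Lgr4 (adjusted p = 0.712) and -2.22 ± 0.69 for Nkd1 (adjusted p = 0.646).

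The spread in these fits is shared with N. When N replicate 3 was also left out, an alternative added after the data were seen, 7 of 9 members were called in polysome-associated mRNA of KP, where 54.9% of all genes were. Lgr5 (0.53 ± 0.14, edgeR adjusted p = 0.0117), Rnf43 (0.36 ± 0.10, adjusted p = 0.0193), Lgr4 (0.28 ± 0.09, adjusted p = 0.0346) and Axin2 (0.27 ± 0.10, adjusted p = 0.0564) were higher. Nkd1 (-1.72 ± 0.63, edgeR adjusted p = 0.0528), Tcf7 (-0.23 ± 0.11, adjusted p = 0.119) and Ascl2 (-0.62 ± 0.36, adjusted p = 0.209) were lower. In translational efficiency of KP, 5 of 9 were called against 46.1% of all genes, with Axin2 (0.35 ± 0.14, edgeR adjusted p = 0.193), Lgr4 (0.47 ± 0.22, adjusted p = 0.211) and Lgr5 (0.51 ± 0.22, adjusted p = 0.196) higher and Notum (-1.04 ± 0.52, adjusted p = 0.219) lower. The other was Nkd1, for which no direction is given because its total mRNA counts in KP were too low. The replicate block with all libraries, and the block without KP replicate 1, each called 0 members and 0 of all genes in translational efficiency of KP by edgeR, with 0 and 1 members and 611 and 63 of all genes at an unadjusted p below 0.05. With so many of all genes called, these counts are not particular to the members. In total mRNA of KP, 0 members were called by the replicate block with all libraries or without N replicate 3. Without N replicate 3, Rnf43 was the lone member at an unadjusted p below 0.05 (0.38 ± 0.12, edgeR adjusted p = 0.636). In N without replicate 3, Lgr4 was higher in polysome-associated mRNA (0.32 ± 0.11, edgeR adjusted p = 0.167), where 15% of all genes were called. The difference between KP and N was called for Lgr5 in polysome-associated mRNA (0.47 ± 0.21, edgeR adjusted p = 0.203), against 27% of all genes.

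**Figure D5:**
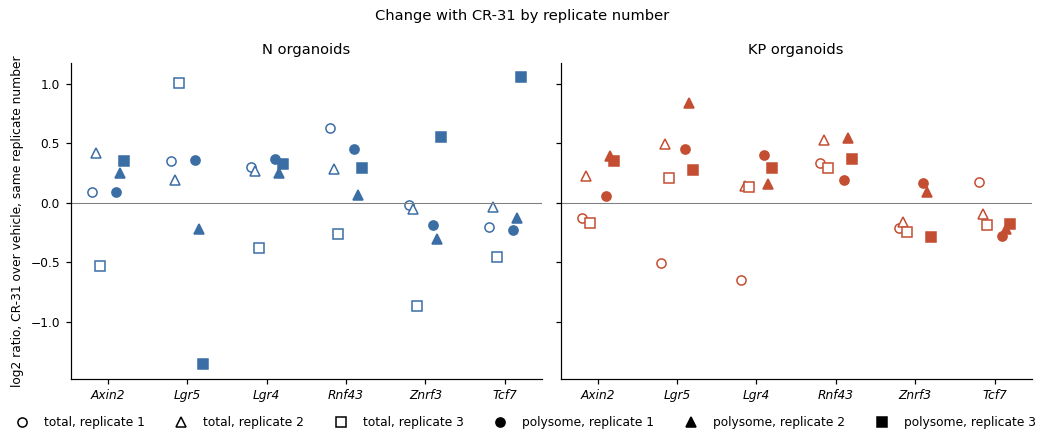
Log2 ratio of CR-31 to vehicle within each replicate number for the 6 well-measured members, in N (left, blue) and KP (right, red), with open symbols for total and filled symbols for polysome-associated mRNA. N replicate 3 (squares) goes in opposite directions in the 2 fractions for Lgr5, Lgr4, Rnf43, Znrf3, Tcf7 and Axin2, and in KP the filled symbols of Lgr4 and Rnf43 all lie above 0.

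The ratio of polysome-associated to total mRNA was used to ask how these mRNAs were loaded with ribosomes. Tcf7 was lower in polysomes than in total mRNA. Its ratio was 0.743, 0.724 and 0.746 in KP replicates 1, 2 and 3 with vehicle and 0.800, 0.797 and 0.411 in N. The log2 ratio was -0.44 ± 0.20 in KP (edgeR adjusted p = 0.200) and -0.64 ± 0.20 in N (adjusted p = 0.0970), and -0.34 ± 0.13 in N without N replicate 3 (adjusted p = 0.115). With vehicle, 4 of 9 members were called in KP, where 27.5% of all genes were: Tcf7, Axin2 (-0.46 ± 0.15, edgeR adjusted p = 0.114), Znrf3 (-0.49 ± 0.19, adjusted p = 0.161), and Nkd1, which was higher (1.26 ± 0.52, adjusted p = 0.172). The call of Nkd1 rested on 3 to 6 counts per library of total mRNA, with ratios of 1.12, 3.87 and 3.77 in KP replicates 1, 2 and 3. In N with vehicle, 1 of 9 was called (Tcf7, 15.2% of all genes). With CR-31, Tcf7 was called in KP (-0.56 ± 0.20, edgeR adjusted p = 0.111), as were 20.2% of all genes, and 0 of 9 members in N, where 18.5% of all genes were called and 0 members had an unadjusted p below 0.05 (DESeq2 called 0). Without N replicate 3 the counts were 6, 3, 3 and 2 in KP with vehicle, N with vehicle, KP with CR-31 and N with CR-31, against 47.8%, 35.7%, 39.7% and 19.1% of all genes. In KP with vehicle 0 members were called by edgeR without KP replicate 2 (0.236% of all genes) or KP replicate 3 (0.00%), and in N with vehicle 0 without N replicate 2 (2.83%), with 0, 1 and 1 members at an unadjusted p below 0.05.

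The ratio of Axin2 was alike in the 3 KP replicates although its level was not. It was 0.713, 0.729 and 0.743 in KP with vehicle, and 1.03, 1.08 and 0.715 in N, where replicate 3 was the low one. With CR-31 it was 0.882, 0.840 and 1.10 in KP. Translational efficiency of KP against N with vehicle called 0 of 9 members, with -0.35 ± 0.22 for Axin2 (edgeR adjusted p = 0.501) and -0.91 ± 0.38 for Lgr5 (adjusted p = 0.433). At an unadjusted p below 0.05, 1 member was found by edgeR (Lgr5), and DESeq2 called 0. Without N replicate 3, 4 of 9 were called, against 35.8% of all genes: Axin2 (-0.52 ± 0.16, edgeR adjusted p = 0.0850), Lgr5 (-0.72 ± 0.23, adjusted p = 0.0980) and Znrf3 (-0.43 ± 0.16, adjusted p = 0.130) were lower in KP and Notum (1.00 ± 0.49, adjusted p = 0.214) was higher. These calls rest on 2 N replicates, and the share of the members was near that of all genes.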

How the data were processed

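Polysome-associated and total mRNA were sequenced from N and KP organoids with vehicle or CR-31 (24 libraries, 3 replicates per group). The authors aligned reads with HISAT2, processed them with SAMtools, discarded reads mapping to several places, and deposited 1 table of read counts and RPKM per gene (full transcript length). The processing notes name human builds although the symbols are mouse, so the build behind the deposited counts is unclear.

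From the deposited counts, the 11438 single-symbol entries counted at least once in each library were tested with edgeR 4.0.16 in R 4.3.3 (TMM normalisation, quasi-likelihood F test, 1 model of 4 groups per mRNA fraction, Benjamini-Hochberg adjustment over all genes tested, called below 0.25 as in the study's methods). Translational efficiency was the interaction of mRNA fraction and group over all 24 libraries with the lysate as a block. CPM were TMM-scaled. RPKM served only for levels between genes. Alternatives were DESeq2 1.42.0, other normalisations and filters, replicate blocks and a term for the batch number. Others were a regression with limma 3.58.1 and leaving out each lysate and each replicate. The fitting scripts were tested on simulated data with known changes.

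The members and pathway lists were chosen with earlier results of these data known. Pathway genes are named by a rule (at most 3 per list, those called in KP against N in total mRNA with vehicle with the largest change). Wnt7b, Sp5, Mmp7 and Avil were named after their values were seen. Deviations of same-numbered libraries from their group means correlated at r = 0.54 to 0.91 between vehicle and CR-31 in N and 0.37 to 0.87 in KP, so numbers were taken as pairing treatments within a type. Between N and KP they correlated at -0.18 to 0.30 and were not.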

Additional observations from a re-analysis of the deposited data

How the results depend on the processing

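Leaving out a lysate or a replicate gave 2 to 6 members in KP against N in total mRNA with vehicle. In polysome-associated mRNA with vehicle it gave 0 to 6. With CR-31 it gave 0 to 7 in total and 1 to 5 in polysome-associated mRNA. In this order, the highest counts were without KP replicate 2, where 19.5%, 29.8%, 35.7% and 19.2% of all genes were called. Without KP replicate 1 these shares were 18.1%, 24.6%, 15.7% and 8.03%. Without KP replicate 3 they were 21.9%, 34.5%, 35.4% and 14.9%. In translational efficiency with vehicle the range was 0 to 4, the highest without N replicate 3 (35.8% of all genes). For polysome-associated against total mRNA the ranges were 0 to 3 in N with vehicle and 0 to 2 in N with CR-31. In KP they were 0 to 6 with vehicle and 0 to 3 with CR-31. Each highest count was without N replicate 3, where 35.7%, 19.1%, 47.8% and 39.7% of all genes were called in this order. In KP with vehicle the count was 0 without KP replicate 2 (0.236% of all genes) or KP replicate 3 (0.00%). Every comparison of CR-31 with vehicle kept 0 members called in these fits.

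In KP against N, filterByExpr gave 3 members and no filter 1 in total mRNA with CR-31 (40.2% and 28.5% of all genes). In polysome-associated mRNA with vehicle, DESeq2 gave 3 of the 8 members with an adjusted p (43.7%) and no filter gave 3 (31.2%), 1 of which was Lef1, too low to assess there. Lef1 was also among the 5 that filterByExpr gave. With no filter, the calls of Axin2, Znrf3 and Nkd1 in polysome-associated mRNA with vehicle and of Lgr5, Notum, Ascl2 and Nkd1 in total mRNA with CR-31 were lost, and the 4 calls of Lgr4 held. In polysome-associated against total mRNA, DESeq2 gave 2 in N with vehicle (18.6%) and no filter 2 in KP with vehicle (14.1%). A replicate block shared between N and KP gave 6 in total mRNA with vehicle (35.5% of all genes) and 7 in polysome-associated mRNA with CR-31 (33.6%). A replicate block within organoid type takes the spread between replicates out of the error of KP against N by construction: it gave 9 in total and 9 in polysome-associated mRNA with vehicle, and 8 and 9 with CR-31, where 56.4%, 68.8%, 65.1% and 58.2% of all genes were called. It gave 1 in polysome-associated against total mRNA of KP with vehicle (19.8%) and 3 for CR-31 in polysome-associated mRNA of KP (19.3%). Regressing the polysome fraction on total mRNA with this replicate block gave 8 in translational efficiency of KP against N (54.3%) and 1 for CR-31 in KP (18.4%). In the first of these, 4 log2 fold changes were called with the opposite sign: -2.52 for Nkd1, 0.79 for Lgr4, -1.40 for Notum and -2.19 for Tcf7. That of Ascl2 went from 0.37 to -0.06, neither called. The cause was not tested.

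The replicate block combined with leaving out N replicate 3 (chosen after seeing the data) gave, for CR-31, 7 members in polysome-associated mRNA of KP (54.9%), 5 in translational efficiency of KP (46.1%), 1 in polysome-associated mRNA of N (15%) and 1 for the difference between KP and N (27%). The block combined with leaving out KP replicate 1 gave 1 in total mRNA of N (15.1%) and 0 in polysome-associated mRNA of KP, so that the 3 calls of the block there (Rnf43, Lgr4 and Nkd1) were lost. Of 3950 values over all settings, 3412 kept their direction and side of the threshold, 135 newly passed it, 130 no longer did, and 269 changed sign with neither value called. Read counts were lowest for Nkd1, Notum, Ascl2 and Lef1, whose values carry the most counting error.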
